A study of Sus scrofa with 18 samples.

Results

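The fresh blastocysts were set against the fresh 2-cells of one series of porcine cloned embryos, to describe which transcripts of the early embryo had disappeared by the blastocyst, which had appeared, and which stood at one level at both stages. All genes found in the tables of both stages were joined by gene identifier, which gave 24358 genes. A gene entered the comparison when it reached 1 FPKM (fragment counts scaled for exon length and for the size of the library) in at least 3 of the 6 fresh libraries, and 9822 genes did.

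The first cleavages of a mammalian embryo run on RNA and protein that the oocyte stored during its growth. These maternal transcripts are cleared in steps, largely by removal of their poly(A) tails, while the embryonic genome is switched on, which in the pig happens mainly around the 4-cell stage. By the blastocyst the embryo has formed an outer epithelium, the trophectoderm, which pumps fluid into a cavity, and an inner cell mass that gives rise to epiblast and hypoblast. In a cloned embryo the same programme has to start from the nucleus of a body cell placed into an enucleated oocyte.

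Donor nuclei came from cultured ear cells of Diannan miniature pigs, and every embryo of the series was made from them by somatic cell nuclear transfer. Each fresh blastocyst library held 1 embryo collected 144 h after activation, and each fresh 2-cell library pooled 4 embryos collected at 24 h, with 3 libraries per stage. Fresh 4-cells (2 embryos per library, 48 h, 3 libraries) and the blastocysts and 2-cells that grew from zygotes vitrified before culture (3 libraries each) were read only to follow the same genes in other samples. Replicates were separate pools or single embryos, and nothing in the sources used here ties them to separate nuclear transfer sessions, so the p-values measure the spread between these libraries. FPKM values carry no read counts, and the depth of each library was not taken into account. Fewer cells of a type cannot be told apart from less RNA per cell.

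At least 1 FPKM was reached by 7551 to 7732 genes in the fresh blastocyst libraries and by 8335 to 8647 genes in the fresh 2-cell libraries. Libraries of one stage resembled each other closely, with a mean Pearson correlation across genes of 0.979 to 0.982 among blastocysts and 0.949 to 0.969 among 2-cells, while correlations across the stages averaged 0.231 to 0.266 per library. The summed FPKM was 684743 to 720304 in blastocysts and 441445 to 469760 in 2-cells, so a difference in FPKM depends in part on how the libraries are scaled. Of 16 donor fibroblast markers 3 passed the filter, and the summed level of the list made up at most 0.0008% of the FPKM of a blastocyst and 0.0133 to 0.0230% of that of a 2-cell library. S100A4, the most abundant of them, was listed at 0.0001, 1.27 and 3.87 FPKM in blastocysts against 72.1, 50.8 and 100 FPKM in 2-cells, while the fibroblast genes LUM, PDGFRB and FAP were at 0.0001 FPKM in each blastocyst and at most 0.147 FPKM in a 2-cell library. Of 16 cumulus and granulosa cell markers 14 were found and 2 passed the filter, VCAN and GREM1, both lower. The list held 0.000185 to 0.000250% of blastocyst and 0.00391 to 0.00589% of 2-cell FPKM, and FSHR, LHCGR and AMH were at 0.0001 FPKM in all 6 libraries. The part of RNA from donor or follicle cells in any result was not tested.

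Nearly 3 in 4 genes changed level between the stages. By limma on log2(FPKM + 1), 2882 genes (29.3%) were higher and 4378 genes (44.6%) were lower in fresh blastocysts than in fresh 2-cells at an adjusted p under 0.05 and a log2 difference beyond 1, together 73.9% of the genes tested. The median difference over all genes tested was -0.68, and it was -0.21 after quantile normalisation, -0.07 after scaling by the median ratio and -1.20 after rescaling each library to one common sum. Under those 3 scalings 3382, 3502 and 2674 genes were higher and 3748, 3629 and 5758 lower, and 2548 genes (88.4%) were called higher and 3567 (81.5%) lower under all 4 scalings. In 5051 genes (51.4%) every blastocyst was below every 2-cell library, and in 3369 genes (34.3%) every blastocyst was above.

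**Figure D1:**
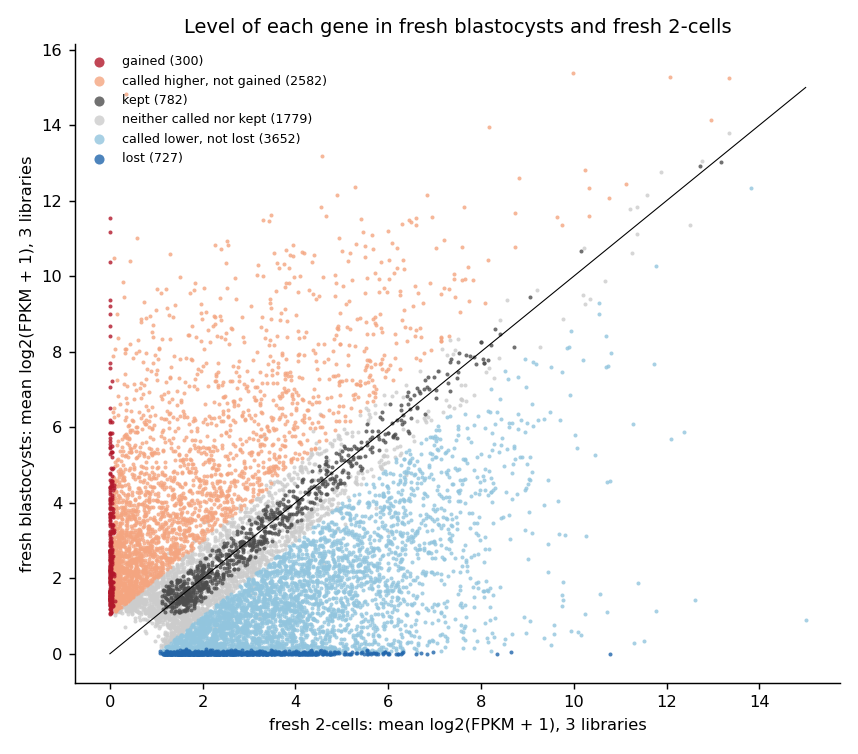
Mean level of each tested gene in fresh blastocysts (vertical axis) and fresh 2-cells (horizontal axis), both as log2(FPKM + 1) over 3 libraries, with the line of equal levels. The 727 lost genes lie on the lower edge and the 300 gained genes on the left edge, and the 782 kept genes follow the line.

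The lost and gained classes were set by level alone, and the kept class by level and by the fit. A lost gene stood at 1 FPKM or more in all 3 fresh 2-cell libraries and under 0.1 FPKM in all 3 fresh blastocysts, a gained gene the reverse, and a kept gene stood at 1 FPKM or more in all 6 libraries with a 95% limma interval of the log2 difference inside -1 to 1. There were 727 lost, 300 gained and 782 kept genes. Since the limits on level define the lost and gained genes, they get no test on these libraries. At the edge of the lost class, MANBA reached 0.0993 FPKM in its highest blastocyst and was inside, while ARMH4, at 0.1 FPKM in its highest blastocyst, fell just outside. For gained genes, STARD10 and VEGFB stood just inside with 0.0998 and 0.0988 FPKM in their highest 2-cell library, and JMJD8, with 0.103 FPKM, just outside.

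The turnover held both changes of amount and switches across 1 FPKM. Of the 7497 genes at 1 FPKM or more in every 2-cell library, 4667 were also at 1 FPKM or more in every blastocyst, and 2927 of these (62.7%) were called, 1087 higher and 1840 lower. A further 2158 tested genes reached 1 FPKM in every 2-cell and in no blastocyst library, and 1395 reached it in every blastocyst and in no 2-cell library. The count of lost genes was then read by level. Since the limit for loss is a fixed 0.1 FPKM, a gene of higher level had to fall further to count. Fewer lost genes at high levels are thus partly built in, and do not show that abundant transcripts were cleared less. In the range of 1 to 10 FPKM in 2-cells 532 of 3950 genes were lost, in the range of 10 to 100 FPKM 189 of 2962, in the range of 100 to 1000 FPKM 5 of 527, and above that 1 of 58.

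Weighted by level, most of the FPKM of each stage came from genes called higher at that stage. The called, lost and gained classes came from these same libraries, so the direction of their shares is largely built in. Genes called higher but not gained carried 76.4 to 79.8% of the summed FPKM of each blastocyst and 12.1 to 12.4% of that of each 2-cell library. Genes called lower but not lost carried 3.74 to 4.29% in blastocysts and 60.6 to 64.2% in 2-cells. Lost genes made up 0.00107 to 0.00139% of blastocyst and 2.05 to 2.25% of 2-cell FPKM, and gained genes 1.74 to 1.95% in blastocysts against 0.000695 to 0.00124% in 2-cells. Kept genes held 4.73 to 5.02% in blastocysts and 6.75 to 8.44% in 2-cells. In the fresh 4-cells the genes called lower still held 41.0 to 43.6% and the genes called higher 22.7 to 26.3%.

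**Figure D2:**
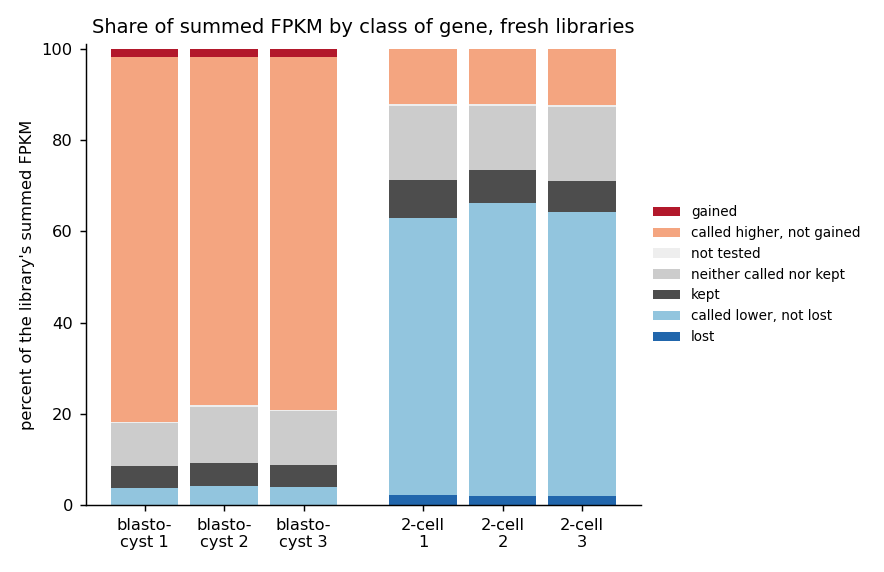
Percent of the summed FPKM of each fresh library carried by each class of gene, with blastocysts on the left and 2-cells on the right. Genes called higher but not gained fill 76.4 to 79.8% of the blastocyst bars, and genes called lower but not lost 60.6 to 64.2% of the 2-cell bars.

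The abundant end of the transcriptome was exchanged as well. Of the 100 genes with the highest mean FPKM at each stage 26 were shared, and of the 1000 highest 302. Among the 100 highest of the 2-cells 68 were lower, 11 higher and 4 kept, and 7 were under 1 FPKM in all 3 blastocysts. Among the 100 highest of the blastocysts 85 were higher, 2 lower and 3 kept.

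The highest single gene of the 2-cells was ENSSSCG00000000296, described in the files as gametocyte-specific factor 1-like and named after its values were seen, since the files give it no symbol. It was listed at 0.0001, 2.30 and 0.928 FPKM in blastocysts, against 27448, 34145 and 37524 FPKM in 2-cells. Gametocyte-specific factors are known in mice as partners of the small RNA pathway that silences transposons in germ cells. The 4-cells still held 7999, 13475 and 10909 FPKM, so the levels of the stages did not overlap.

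PCNA, the sliding clamp of DNA replication, was at 37.3, 62.8 and 54.7 FPKM in blastocysts against 4073, 4553 and 4581 FPKM in 2-cells. Every blastocyst was far below every 2-cell library, with a log2 difference of -6.42 ± 0.23 (SE, n = 3 each, limma adjusted p = 3.06e-07). DNMT1, the maintenance DNA methyltransferase, was at 1.31, 4.12 and 3.13 FPKM in blastocysts and 3084, 2400 and 2544 FPKM in 2-cells. Its log2 difference was -9.51 ± 0.30 (limma adjusted p = 2.49e-07), again with no overlap.

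In the blastocysts the nuclear mRNA with the highest mean was a ferritin heavy chain gene without a symbol, ENSSSCG00000014540, also named after its values were seen. Ferritin heavy chain forms, with the light chain, the shell that stores iron. It stood at 58758, 37734 and 35169 FPKM in blastocysts against 1082, 910 and 1048 FPKM in 2-cells, a log2 difference of 5.40 ± 0.24. CSTB, which encodes the cysteine protease inhibitor cystatin B, stood at 10531, 9189 and 8208 FPKM in blastocysts against 22.3, 25.9 and 20.8 FPKM in 2-cells (log2 difference 8.60 ± 0.18). TMSB10, an actin-binding thymosin, had 11984, 18827 and 17399 FPKM in blastocysts and 102, 912 and 254 FPKM in 2-cells, which spread widely but stayed below every blastocyst.

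Some rows among the highest were named for short RNAs rather than mRNAs, and 123 such rows were tested. A row named ssc-mir-1285 was at 26839, 28139 and 32292 FPKM in blastocysts and 1.03, 0.00249 and 0.0229 FPKM in 2-cells, but at 15900 FPKM in 1 of the 3 fresh 4-cells, 1.96 and 0.0858 FPKM in the others, and at 4139 and 4881 FPKM in 2 of the 3 vitrified 2-cells. Of 2 rows named RF00017, a family of signal recognition particle RNA, one was higher in blastocysts (log2 difference 3.21) and the other lower (-11.20). These rows rest on very short or repeated sequences, and their levels were not set beside those of single mRNAs. They did stay in all counts and in the summed FPKM from which every share is taken.

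Among the 727 lost genes 565 had a symbol and 380 were listed at 0.0001, which stands for 0, in all 3 blastocysts. Their median level in 2-cells was 4.72 FPKM, 195 stood at 10 FPKM or more and 6 at 100 FPKM or more. The highest was OOEP, a subunit of the subcortical maternal complex, a protein assembly under the oocyte membrane that early cleavage depends on in mice. OOEP was listed at 0.0001 FPKM in each blastocyst against 2251, 1454 and 1691 FPKM in 2-cells. In the vitrified embryos it was at 0.237, 0.0001 and 0.0001 FPKM in blastocysts against 2085, 1813 and 2257 FPKM in 2-cells.

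SRPX, which encodes a sushi repeat protein, was at 0.0001, 0.0905 and 0.0001 FPKM in blastocysts against 486, 300 and 446 FPKM in 2-cells. GZMA, known as the granzyme A protease of cytotoxic lymphocytes, was at 0.0001 FPKM in each blastocyst and at 91.8, 96.0 and 100 FPKM in 2-cells. TCL1A, a coactivator of AKT kinases, was at 0.0001 FPKM in each blastocyst and at 108, 83.1 and 39.2 FPKM in 2-cells. The rest of the 12 highest lost genes with a symbol were MANBA (lysosomal beta-mannosidase), NLRP11, PDE6C (a cone phosphodiesterase subunit), MYH15 (a myosin heavy chain), SNX31 (a sorting nexin), TESC, SLC35F4 and GREB1L. Their 2-cell values ran from 40.7 FPKM for TESC to 146 FPKM for MANBA.

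Most of these genes were still present at the 4-cell stage. At 48 h 538 of the 727 lost genes were still at 1 FPKM or more in all 3 fresh 4-cells, 164 in 1 or 2 of them and 25 in none, and 4 were under 0.1 FPKM in all 3. The median level of the class was 3.65 FPKM in 4-cells. Of the 195 lost genes with at least 10 FPKM in 2-cells, 42 had a 4-cell mean at or above their 2-cell mean, and 0 had a 4-cell mean of at most 0.1 times the 2-cell mean. PDE6C had 73.1, 69.6 and 96.8 FPKM in 2-cells, 78.9, 74.0 and 54.7 FPKM in 4-cells and at most 0.0914 FPKM in a blastocyst. OOEP stood lower in the 4-cells, at 497, 413 and 788 FPKM, than in any 2-cell library, and so did SRPX, at 42.5, 63.4 and 93.4 FPKM.

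**Figure D3:**
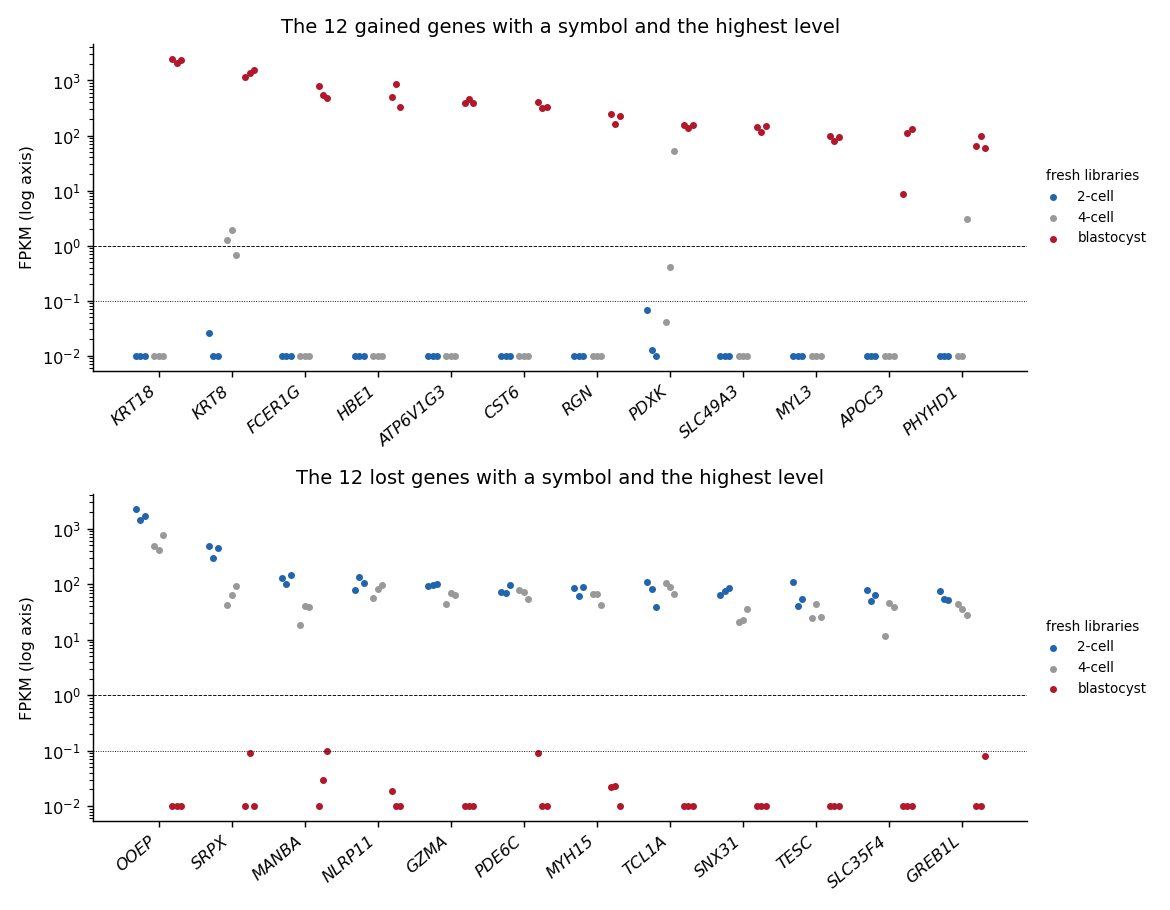
FPKM, on a log axis, of the 12 gained and the 12 lost genes with a symbol and the highest level, in the fresh 2-cell, 4-cell and blastocyst libraries (3 points each). Values under 0.01 FPKM are drawn at 0.01, the dashed line marks 1 FPKM and the dotted line 0.1 FPKM. Most gained genes are still at the floor in 4-cells, whereas all 12 lost genes are above 1 FPKM in every 4-cell library.

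In the wider set of oocyte genes most tested members were lower, whether or not they crossed the limit for loss. Of 10 genes of the zona pellucida and secreted oocyte factors, 7 were tested and 7 were lower (median log2 difference -5.94, against -0.68 for all genes). The counts in this and every later list stand beside 29.3% higher and 44.6% lower over all genes tested. A member at 1 FPKM at only 1 stage could pass the filter only in the direction of that stage, so these counts are not a test. BMP15 and GDF9 encode the growth factors through which the oocyte instructs the surrounding follicle cells. BMP15 was at 0.0001, 0.428 and 1.05 FPKM in blastocysts and at 549, 336 and 358 FPKM in 2-cells (log2 difference -8.15 ± 0.31). GDF9 was at 0.676, 0.705 and 1.02 FPKM in blastocysts and at 109, 95.7 and 125 FPKM in 2-cells (-5.94 ± 0.19). OOSP2, an oocyte-secreted protein, differed by -9.52 ± 0.35.

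The zona glycoproteins form the egg coat, and their mRNAs were still plentiful in the 2-cells. ZP4 stood at 0.0413, 0.912 and 0.0964 FPKM in blastocysts against 334, 194 and 127 FPKM in 2-cells (-7.29 ± 0.39). ZP2 and ZP3 were lower by -5.74 ± 0.25 and -5.10 ± 0.34. ASTL, the egg protease that cleaves ZP2 after fertilisation, was lost, at 0.0001 FPKM in each blastocyst and at 28.0, 8.64 and 6.28 FPKM in 2-cells. FGF8 did not pass the filter, with at most 0.158 FPKM in any of the 6 libraries. In the fresh 4-cells ZP4 stood above every 2-cell library, at 621, 401 and 642 FPKM, and ZP2 overlapped the 2-cell values, at 130, 106 and 94.4 FPKM.

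For the subcortical maternal complex and its partners 4 of 11 listed genes were in the tables, 3 passed the filter and 3 were lower. Beside OOEP these were NLRP9, at 0.165, 0.248 and 0.595 FPKM in blastocysts against 701, 704 and 561 FPKM in 2-cells (-8.95 ± 0.20), and PADI6, an arginine deiminase relative needed for oocyte lattices in mice, at 0.0001, 0.299 and 0.259 FPKM against 78.4, 61.1 and 56.5 FPKM (-5.80 ± 0.21). ZBED3 was at 0.617 FPKM in 1 2-cell library and listed at 0.0001 in the other 5.

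All 7 oocyte transcription factors tested were lower, 6 of them after quantile or median ratio scaling. NOBOX and FIGLA, which activate oocyte genes during follicle growth, were lost. NOBOX was at 0.0001 FPKM in each blastocyst and at 17.4, 6.42 and 8.89 FPKM in 2-cells. FIGLA was at 0.0001 FPKM in each blastocyst and at 8.69, 6.97 and 9.02 FPKM in 2-cells. FOXR1 was the most abundant of the list in 2-cells, with 0.158, 1.65 and 0.0001 FPKM in blastocysts against 667, 426 and 443 FPKM in 2-cells (-8.43 ± 0.39).

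Meiotic arrest and cytostatic factor genes hold the oocyte before fertilisation. Of 14 tested, 12 were lower and 0 higher (median -3.45), and CDC20 and FZR1, activators of the anaphase-promoting complex, were not called. MOS, the kinase of the cytostatic factor, was at 0.0001, 0.740 and 2.46 FPKM in blastocysts against 1380, 297 and 368 FPKM in 2-cells (-8.19 ± 0.65). The 2-cell replicate 1 stood over 3 times above the other 2-cell libraries here, and it was also the highest of them for KPNA7, H1FOO and PABPN1L, yet all 2-cell values lay above every blastocyst value. WEE2, an oocyte kinase that restrains CDK1, was at 0.0001, 0.513 and 0.913 FPKM in blastocysts and 879, 781 and 647 FPKM in 2-cells (-9.07 ± 0.27). FBXO43, an inhibitor of the anaphase-promoting complex, was lost.

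Genes for storage and decay of maternal mRNA were lower in 19 of 24 cases and higher in 1 (median -2.98). BTG4, the adaptor that brings the CCR4-NOT deadenylase to maternal mRNAs in mice, was at 0.0001, 0.422 and 0.444 FPKM in blastocysts against 3021, 2715 and 3056 FPKM in 2-cells. Its log2 difference was -11.17 ± 0.20 (limma adjusted p = 1.2e-07), and the stages did not overlap. CPEB1, which governs cytoplasmic polyadenylation, had 0.0001, 0.195 and 0.0499 FPKM in blastocysts and 75.2, 66.7 and 70.6 FPKM in 2-cells (-6.06 ± 0.17). The catalytic subunit gene CNOT7 was lower as well, at 9.79, 8.06 and 8.05 FPKM in blastocysts and 119, 88.0 and 87.1 FPKM in 2-cells, and was named after its values were seen. The 1 member that was higher was IGF2BP1, described with its relatives below.

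Chromatin and reprogramming factors did not move one way. Of 20 tested 6 were higher and 9 lower (median -0.70, and -0.36, -0.35 and -1.28 under the 3 other scalings), close to the 29.3% higher, 44.6% lower and median of -0.68 over all genes tested, so the count says nothing particular about the list. H1FOO, the oocyte linker histone, was at 0.0001, 2.98 and 1.62 FPKM in blastocysts against 5361, 2555 and 3064 FPKM in 2-cells (-10.64 ± 0.51). NPM2, the egg histone chaperone nucleoplasmin, was at 0.0001, 0.0001 and 0.165 FPKM in blastocysts and 511, 189 and 271 FPKM in 2-cells (-8.15 ± 0.35). TET1, which oxidises methylcytosine, went the other way, with 16.6, 23.3 and 19.6 FPKM in blastocysts and 0.519, 3.54 and 1.43 FPKM in 2-cells (3.01 ± 0.38). Summed over the list, these genes made up 0.0091 to 0.0128% of blastocyst FPKM and 1.19 to 1.97% of 2-cell FPKM. Few genes carried that sum. The list held 9057, 5261 and 5987 FPKM in 2-cells, of which H1FOO alone gave the 5361, 2555 and 3064 FPKM above.

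Of the 300 gained genes 263 had a symbol and 132 were listed at 0.0001 in all 3 fresh 2-cells. Their median level in blastocysts was 4.66 FPKM, 90 stood at 10 FPKM or more and 12 at 100 FPKM or more. The highest was ENSSSCG00000010792, described in the files as proline rich acidic protein 1 and named after its values were seen, at 3485, 2446 and 3100 FPKM in blastocysts and 0.0001 FPKM in each 2-cell library. KRT18 and KRT8, the paired keratins of simple epithelia, led the gained genes with a symbol. KRT18 was at 2470, 2118 and 2376 FPKM in blastocysts and at 0.0001 FPKM in each 2-cell library. KRT8 was at 1141, 1381 and 1523 FPKM in blastocysts and at 0.0264, 0.0001 and 0.0001 FPKM in 2-cells. Both stood at 1141 FPKM or more in every fresh blastocyst, and in the vitrified blastocysts KRT18 stood at 1918, 1510 and 1322 FPKM and KRT8 at 1363, 620 and 559 FPKM.

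FCER1G, known as the signalling chain of Fc receptors, was at 805, 535 and 483 FPKM in blastocysts, ATP6V1G3, a subunit of the proton-pumping vacuolar ATPase, at 394, 467 and 384 FPKM, and CST6, a secreted cystatin, at 398, 312 and 324 FPKM. All 3 were listed at 0.0001 FPKM in every fresh 2-cell and 4-cell library. HBE1, the embryonic epsilon globin, was at 493, 851 and 325 FPKM in fresh blastocysts and 0.0001 FPKM in each 2-cell library, but at 0.851, 2.55 and 20.7 FPKM in vitrified blastocysts. The remaining genes of the 12 highest were RGN (regucalcin), PDXK (pyridoxal kinase), SLC49A3, MYL3 (a myosin light chain), APOC3 (an apolipoprotein) and PHYHD1. APOC3 was uneven, with 8.71 FPKM in blastocyst replicate 1 against 112 and 132 FPKM in the other blastocysts.

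Most gained genes were not yet present at 48 h. Of the 300 gained genes 247 were at 1 FPKM in no fresh 4-cell library, 46 in 1 or 2 and 7 in all 3, and 139 were under 0.1 FPKM in all 3. The class had a median of 0.0543 FPKM in 4-cells. Among the 90 gained genes with at least 10 FPKM in blastocysts, 82 had a 4-cell mean of at most 0.1 times the blastocyst mean. The 4-cell libraries differed in this, with 28, 13 and 35 gained genes at 1 FPKM or more in replicates 1, 2 and 3. PDXK, for example, was at 0.0403 and 0.410 FPKM in 4-cell replicates 1 and 2 and at 52.0 FPKM in replicate 3.

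Genes called higher but not gained carried far more of the blastocyst FPKM than the gained genes. Of 60 cytosolic ribosomal protein genes tested 58 were higher and 0 lower (median 5.63), and together the list held 8.69 to 11% of blastocyst FPKM and 0.722 to 0.833% of 2-cell FPKM. RPL18 was at 935, 758 and 733 FPKM in blastocysts and 1.12, 1.40 and 1.42 FPKM in 2-cells, a log2 difference of 8.45 ± 0.18 (limma adjusted p = 1.2e-07). RPL23 was at 1753, 1471 and 1423 FPKM in blastocysts and 1.32, 2.36 and 0.909 FPKM in 2-cells (9.29 ± 0.24). The exceptions were RPS24 and RPL26L1, neither of them called on the deposited scale. After quantile normalisation or rescaling to a common sum, and in the vitrified series, 58 of the list were higher and 2 lower. RPL26L1, a paralogue of RPL26, was kept, at 244, 323 and 273 FPKM in blastocysts and 435, 385 and 430 FPKM in 2-cells, while RPL26 itself was at 680, 826 and 765 FPKM and 0.492, 3.36 and 0.490 FPKM. Ribosomal protein genes have many processed copies in mammalian genomes, and how the counting shared reads among them is not given in the sources used here. In the fresh 4-cells the list held 1.47, 1.16 and 2.71% of FPKM.

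Nuclear genes of oxidative phosphorylation rose nearly as uniformly. Of 65 tested 63 were higher and 0 lower (median 3.90, and 1 lower after quantile normalisation or rescaling to a common sum), and only NDUFA1 and SDHB were not called. NDUFS8, a core subunit of complex I, was at 725, 643 and 569 FPKM in blastocysts and 0.598, 0.683 and 0.681 FPKM in 2-cells (8.60 ± 0.17). UQCR11, a subunit of complex III, was at 2837, 3008 and 2759 FPKM in blastocysts and 8.99, 6.84 and 11 FPKM in 2-cells (8.19 ± 0.20). The list held 8.08 to 9.36% of FPKM in blastocysts and 1.32 to 1.62% in 2-cells.

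The 13 mRNAs encoded by mitochondrial DNA, a list added after their values were seen, depended on the scale. There were 5 higher and 1 lower with a median of 0.58. Median ratio scaling gave 10 higher and 0 lower (median 1.19), quantile normalisation 1 and 1 (median -0.12), and rescaling to a common sum 3 and 1 (median -0.04). Their summed share was 11.6 to 21.9% in blastocysts and 11.7 to 17.9% in 2-cells, and it was 29.9 to 33.5% in the fresh 4-cells. COX3 was at 27408, 47624 and 45029 FPKM in blastocysts and 10785, 7755 and 13346 FPKM in 2-cells, and ATP6 at 3891, 6332 and 5680 FPKM in blastocysts and 14886, 10850 and 18572 FPKM in 2-cells. COX2 was called higher (1.17 ± 0.42, limma adjusted p = 0.0312), but lost that call without blastocyst replicate 2 or 3 and without any one 2-cell replicate (adjusted p of 0.0552 to 0.0970), as it did without the filter on low values, after quantile normalisation and after rescaling to a common sum. Over all alternatives its limma adjusted p ranged from 0.00439 to 0.760.

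In cholesterol synthesis and glycolysis most of the tested genes were higher, but not all. Of 20 cholesterol synthesis genes tested 15 were higher and 2 lower (median 2.83). The summed FPKM of the list overlapped between the stages, at 987, 796 and 1046 in blastocysts and 842, 934 and 903 in 2-cells. As a share of the library, whose sum is larger in blastocysts, it was 0.113 to 0.145% in blastocysts and 0.183 to 0.212% in 2-cells. MVD and IDI1, which act in succession in the mevalonate pathway, were both higher. MVD was at 63.7, 39.8 and 50.9 FPKM in blastocysts and 0.294, 0.119 and 0.205 FPKM in 2-cells (5.42 ± 0.22). IDI1 was at 313, 315 and 385 FPKM in blastocysts and 15.7, 16.6 and 19.4 FPKM in 2-cells (4.21 ± 0.18). FDFT1, the squalene synthase that follows, was lower, at 33.3, 15.1 and 26.5 FPKM in blastocysts and 515, 539 and 518 FPKM in 2-cells (-4.40 ± 0.28). HSD17B7, a late step of sterol synthesis named after its values were seen, was the other lower member.

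Of 17 glycolysis genes tested 10 were higher and 5 lower (median 1.18). GAPDH was at 347, 281 and 265 FPKM in blastocysts and 8.04, 3.84 and 3.79 FPKM in 2-cells (5.64 ± 0.28), and ENO1 at 399, 202 and 245 FPKM in blastocysts and 3.92, 2.51 and 2.90 FPKM in 2-cells (6.06 ± 0.28). LDHA, which makes lactate from pyruvate, was lower, at 7.28, 9.72 and 6.88 FPKM in blastocysts and 35.2, 45.5 and 41.2 FPKM in 2-cells (-2.22 ± 0.20). Genes commonly taken as steady references moved too. ACTB, cytoplasmic beta-actin, was at 472, 518 and 520 FPKM in blastocysts and 17.5, 13.3 and 15 FPKM in 2-cells (4.96 ± 0.17), and of 21 such genes tested 14 were higher and 3 lower, though none of the 22 found was listed at 0.0001 in any of the 6 libraries.

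The proteasome and ribosome biogenesis were split. Of 30 proteasome genes 13 were higher and 4 lower (median 0.50). Median ratio scaling gave 15 higher and 1 lower (median 1.09), quantile normalisation 13 and 4 (median 0.77), and rescaling to a common sum 10 and 8 (median -0.10). PSMB7 stood at 705, 841 and 774 FPKM in blastocysts and 13.5, 29.5 and 9.62 FPKM in 2-cells (5.53 ± 0.37), whereas PSMD12 was at 11.6, 13.6 and 10.8 FPKM in blastocysts and 99.1, 112 and 122 FPKM in 2-cells (-3.11 ± 0.18). Of 33 genes of rRNA synthesis and ribosome biogenesis 9 were higher and 13 lower (median -0.39), beside 29.3% higher and 44.6% lower and a median of -0.68 over all genes tested. That balance turned to 11 higher and 10 lower after quantile normalisation (median -0.01) and to 12 and 9 after median ratio scaling (median -0.02), and was 8 and 16 after rescaling to a common sum (median -0.93). FBL, the fibrillarin methyltransferase, was higher by 5.19 ± 0.19 and NAT10, an RNA acetyltransferase, was lower (-5.19 ± 0.34).

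**Figure D4:**
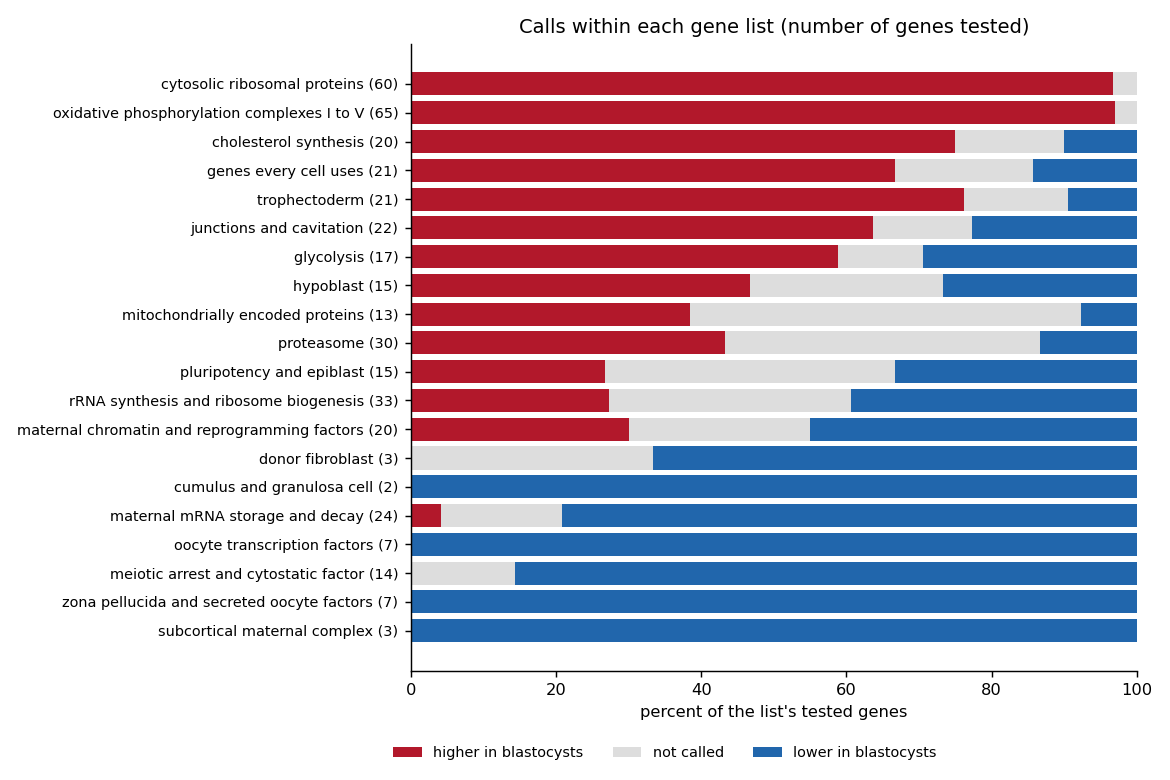
Percent of the tested genes of each list called higher in fresh blastocysts, not called, or called lower, with the number tested in brackets and the lists ordered by median log2 difference. Ribosomal protein (58 of 60) and oxidative phosphorylation genes (63 of 65) lie at the higher end and the lists of oocyte genes at the lower end.

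Markers of the blastocyst lineages were read against the label of the stage. Of 26 trophectoderm genes 21 were tested, 16 were higher and 2 lower (median 2.17), and 5 were gained. CDX2, a transcription factor that specifies trophectoderm in mice, was at 4.10, 2.51 and 4.12 FPKM in blastocysts and 0.0001 FPKM in each 2-cell library. GATA3, which acts with it, was at 25.1, 22.3 and 22.8 FPKM in blastocysts and 0.249, 0.291 and 0.152 FPKM in 2-cells (4.31 ± 0.17). DAB2, an endocytic adaptor, was at 96.5, 140 and 149 FPKM in blastocysts and 0.255, 0.532 and 0.662 FPKM in 2-cells (6.43 ± 0.23). Of the lower members, PPARG was at 0.703, 0.596 and 1.37 FPKM in blastocysts and 30.6, 26.8 and 23.1 FPKM in 2-cells (-3.90 ± 0.22). GRHL2 was at 1.37, 1.11 and 1.36 FPKM in blastocysts and 13.9, 8.66 and 9.18 FPKM in 2-cells (-2.32 ± 0.22).

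The other trophectoderm genes called higher included KRT8, KRT18, KRT7, GATA2, ELF3, KLF5, OVOL1, TFAP2C, TEAD4, TFAP2A, EPCAM and GRHL1, with GRHL1 the smallest of them at a log2 difference of 1.44. TFAP2C was uneven in 2-cells, at 20.3, 25.5 and 13.7 FPKM in blastocysts and 0.900, 8.23 and 1.03 FPKM in 2-cells. TEAD3, DLX5 and FGFR2 were not called, and ELF5, EOMES, HAND1 and DLX3 did not pass the filter. EOMES was listed at 0.0001 FPKM in each blastocyst and at 0.985, 0.988 and 0.542 FPKM in 2-cells. The summed list made up 0.553 to 0.598% of blastocyst FPKM and 0.0125 to 0.0175% of 2-cell FPKM.

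Genes of junctions and cavity formation followed the epithelial keratins. Of 22 tested 14 were higher and 5 lower (median 1.74). CLDN4, a tight junction claudin, was at 718, 533 and 599 FPKM in blastocysts and 10.5, 0.729 and 1.95 FPKM in 2-cells (7.30 ± 0.62). AQP3, a water and glycerol channel, was gained, at 26.3, 21.9 and 20.7 FPKM in blastocysts and at most 0.0855 FPKM in 2-cells, and so was the desmosomal cadherin DSG2. The adherens junction gene CDH1, named after its values were seen, was lower, at 22.4, 29.4 and 25.1 FPKM in blastocysts and 59.8, 86.4 and 83.4 FPKM in 2-cells.

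Hypoblast genes were mixed, with more of them higher than lower. Of 24 listed 15 were tested, 7 were higher and 4 lower (median 0.99), and 10 were higher and 3 lower after quantile or median ratio scaling. Over all genes tested 29.3% were higher and 44.6% lower. GATA6, which is needed for hypoblast in mice, was at 16, 12 and 12 FPKM in blastocysts and 0.0789, 0.166 and 0.0478 FPKM in 2-cells (3.70 ± 0.18). GATA4 was lower (-1.03 ± 0.24), at 0.901, 0.944 and 1.02 FPKM in blastocysts and 4.84, 2.27 and 2.33 FPKM in 2-cells, and fell short of a log2 difference of 1 without 2-cell replicate 1 (-0.76), after quantile (-0.65) or median ratio scaling (-0.65) and with weights per library (-0.88). APOA1, the main protein of high-density lipoprotein, was at 51.8, 646 and 582 FPKM in blastocysts and at most 0.142 FPKM in 2-cells, and APOE at 13.8, 42.4 and 27.8 FPKM and at most 1.26 FPKM. Blastocyst replicate 1 was the lowest for both, as it was for APOC3. HNF4A (1.81), LAMA5 (2.01), LAMA1 (1.34) and PDGFRA (1.15) were also higher, and the lower members also included NID2 (-2.78) and SPARC (-1.59). LAMB1, LAMC1, SERPINH1 and P4HA2 were not called, and the defining factors SOX17 and FOXA2 stood at no more than 0.340 FPKM in any of the 6 libraries.

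Pluripotency and epiblast genes showed no common direction. Of 23 listed 20 were found by symbol, and POU5F1, DPPA4 and UTF1 were not, so nothing can be said of these. Of 15 tested 4 were higher and 5 lower, with a median of 0.44 that turned to -0.06 after rescaling to a common sum. Over all genes tested 29.3% were higher and 44.6% lower, with a median of -0.68. ESRRB, an orphan nuclear receptor, was at 20.5, 14.0 and 17.5 FPKM in blastocysts and 0.0822, 0.0001 and 0.113 FPKM in 2-cells (4.09 ± 0.20). TDGF1, the NODAL co-receptor, was gained, at 31.5, 20.3 and 19.5 FPKM in blastocysts and 0.0001 FPKM in each 2-cell library. ZFP42 and GDF3 were the other members called higher. DPPA5 was lower yet still abundant, at 169, 272 and 186 FPKM in blastocysts and 2805, 4647 and 3068 FPKM in 2-cells (-4.06 ± 0.27), and LIN28A, LIN28B, ETV5 and KLF2 were lower too.

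The defining epiblast factor NANOG was at 1.21, 3.84 and 0.873 FPKM in blastocysts and 0.0001, 4.04 and 0.0001 FPKM in 2-cells, ranges that overlapped, and at 27.3, 23.1 and 29.9 FPKM in the fresh 4-cells. SOX2 did not pass the filter, with at most 0.107 FPKM in a blastocyst and 0.660 FPKM in a 2-cell library. DPPA2, SALL4, KLF4, KLF17 and TFCP2L1 were not called. FGF4, PRDM14, NODAL and ETV4 did not pass the filter, and NODAL was listed at 0.0001 FPKM in each blastocyst against 2.90, 0.696 and 1.75 FPKM in 2-cells.

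Genes kept at one level were a minority even among those that both stages held. Of the 4667 genes at 1 FPKM or more in all 6 libraries 782 (16.8%) were kept, 2927 were called, and 958 were neither. The kept genes had a median level of 5.43 FPKM. Among the most abundant, UBB, a polyubiquitin gene, was at 7492, 9055 and 8490 FPKM in blastocysts and 12734, 7427 and 8347 FPKM in 2-cells, ranges that overlapped, with a log2 difference of -0.15 ± 0.24. FTL, the ferritin light chain, was at 8841, 7471 and 7132 FPKM in blastocysts and 8315, 6516 and 5689 FPKM in 2-cells (0.20 ± 0.21), in contrast to the ferritin heavy chain gene above. LAMTOR5, a subunit of the lysosomal Ragulator complex, was at 228, 230 and 239 FPKM in blastocysts and 225, 222 and 237 FPKM in 2-cells (0.03 ± 0.15).

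The other kept genes of high level were DBI (acyl-CoA binding protein), SDHB (a subunit of succinate dehydrogenase), PCBD2, PDCD5, SNRPD3 (a spliceosome Sm protein), PNP (purine nucleoside phosphorylase), MRPL11 (a mitochondrial ribosomal protein), RBX1 (the RING subunit of cullin ligases) and GABARAPL2 (an autophagy ATG8 protein). Their log2 differences lay between -0.37 for MRPL11 and 0.39 for DBI. A kept gene was not always level in between. PDCD5, at 260, 308 and 303 FPKM in blastocysts and 299, 260 and 328 FPKM in 2-cells, was at 51.8, 90.5 and 88.4 FPKM in the fresh 4-cells. Over the class, the 4-cell mean was within 2 times of the mean of the 6 libraries for 677 genes, above that for 65 and below it for 40.

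Which genes count as kept depends on the scale. Only 13 of the 782 (1.66%) were kept under all 4 scalings, against 534 of 727 lost genes (73.5%) and 204 of 300 gained genes (68.0%) that stayed in their class. The 13 included KRIT1, CPSF6, PTPN14, HMBOX1 and MAGI1, named after their values were seen. All 13 stood low, with a mean over the 6 libraries of 1.46 to 2.99 FPKM. At such levels the added 1 shrinks the shifts between scalings, so staying in the class does not show that these genes were steadier. UBB, PCBD2 and PDCD5 were kept on the deposited scale alone, and FTL, SDHB, SNRPD3, PNP and LAMTOR5 under 3 of the 4 scalings. UBB differed by -0.89 after quantile normalisation, 0.46 after median ratio scaling and -0.77 after rescaling to a common sum, so its direction was not fixed.

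Pairs of an oocyte form and a related form of one protein, in most pairs the more widely used one, were followed together, since a stage may hold one, both or neither. Of 25 pairs 17 had both genes tested. The oocyte form was lower in all 17. Forms at 1 FPKM only in 2-cells could pass the filter only as lower, so this count is not a test. LSM14B, an oocyte form that did not pass the filter, was at 0.812, 1.14 and 0.697 FPKM in blastocysts. In 2-cells it was at 0.851, 0.0001 and 0.0001 FPKM. The other form was higher in 4 pairs, not called in 5 and lower in 8.

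In 4 pairs the calls were opposite. PABPC1L, an oocyte poly(A)-binding protein, was lost, at 0.0001 FPKM in each blastocyst and 23.9, 5.75 and 7.70 FPKM in 2-cells. PABPC1, the cytoplasmic poly(A)-binding protein of other cells, was at 67.0, 90.9 and 79.5 FPKM in blastocysts and 0.665, 0.712 and 0.542 FPKM in 2-cells (5.60 ± 0.19). IGF2BP3 was lower and IGF2BP1 gained, both of them proteins that bind and stabilise mRNA. IGF2BP3 was at 0.547, 0.996 and 0.849 FPKM in blastocysts and 43.7, 40.1 and 40.9 FPKM in 2-cells (-4.57 ± 0.18), and IGF2BP1 at 29.0, 25.9 and 31.3 FPKM in blastocysts and at most 0.0781 FPKM in 2-cells. The 2 other pairs were BTG4 with BTG1 (1.48 ± 0.43, a call lost without 2-cell replicate 3, at a limma adjusted p of 0.0534, and after rescaling to a common sum, at 0.0610) and ACTL8, which was lost, with ACTB.

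In 5 pairs the common form was not called. EIF4E1B, the oocyte cap-binding protein, was lost, at 0.0001 FPKM in each blastocyst and 39.3, 18.2 and 23.2 FPKM in 2-cells, while EIF4E was kept, at 6.52, 8.06 and 6.44 FPKM in blastocysts and 5.77, 9.60 and 10.9 FPKM in 2-cells. PABPN1L was lost and PABPN1, its nuclear counterpart, was kept, at 2.17, 4.01 and 3.24 FPKM in blastocysts and 3.31, 3.58 and 2.46 FPKM in 2-cells. YBX2, the germ cell cold shock protein, was lower by -2.70 ± 0.33, and YBX1 stood at 300, 228 and 263 FPKM in blastocysts and 275, 139 and 137 FPKM in 2-cells, with overlap. H1FOO with H1F0 and CPEB1 with CPEB2 made up the 5.

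In the remaining 8 pairs both forms were lower. TBPL2, the TATA-binding protein relative used by oocytes in mice, was lost, at 0.0001 FPKM in each blastocyst and 4.28, 8.94 and 7.95 FPKM in 2-cells. TBP itself was lower as well, at 0.593, 0.440 and 0.854 FPKM in blastocysts and 36.5, 55.4 and 47.6 FPKM in 2-cells (-4.85 ± 0.22). The importins KPNA7 (-8.48 ± 0.45) and KPNA2 (-4.83 ± 0.19) fell together, as did NPM2 and NPM1 (-2.45 ± 0.33), CCNB3 (-3.47 ± 0.26) and CCNB1 (-3.86 ± 0.22), AURKC (-3.43 ± 0.34) and AURKB (-2.19 ± 0.41), CNOT6L and CNOT6, and ZAR1 and ZAR1L. ZAR1L is itself an oocyte gene, at 0.0001, 0.135 and 0.112 FPKM in blastocysts and 157, 43.2 and 72.4 FPKM in 2-cells. The de novo DNA methyltransferases DNMT3A (-1.77 ± 0.26) and DNMT3B closed the list, the second of them lost, at 0.0256, 0.0597 and 0.0755 FPKM in blastocysts and 1.29, 1.61 and 1.07 FPKM in 2-cells. After quantile normalisation DNMT3B differed by -0.95 and was no longer called.

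**Figure D5:**
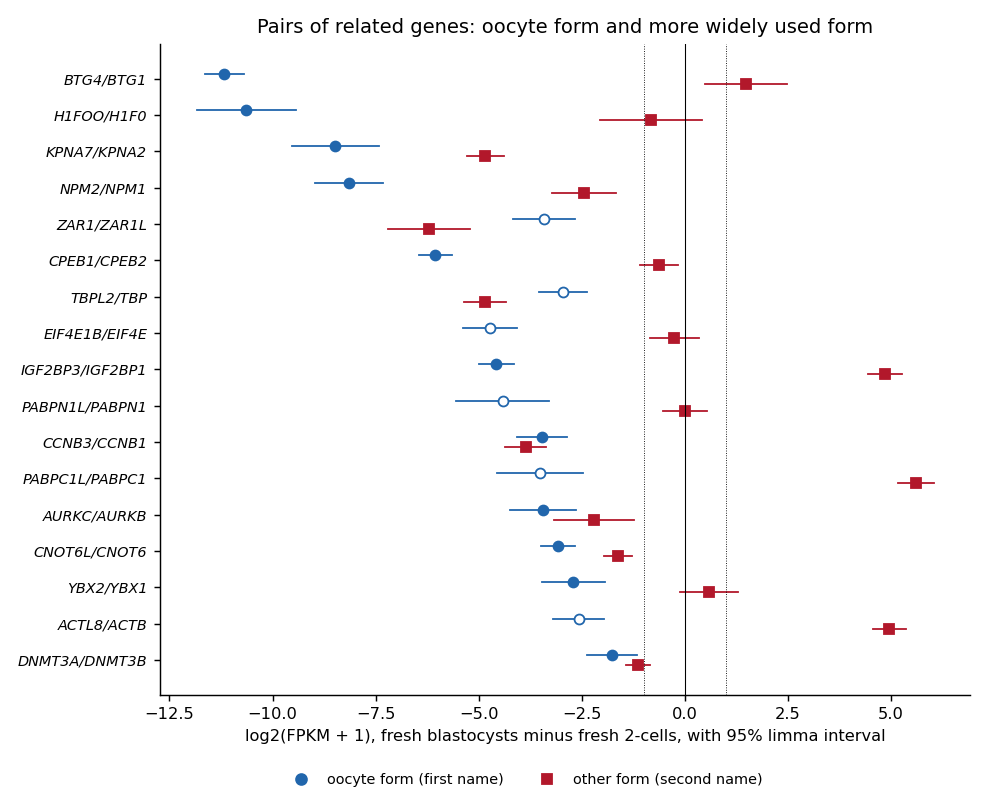
Log2 difference (fresh blastocysts minus fresh 2-cells, log2(FPKM + 1) scale) with its 95% limma interval for the 17 pairs with both genes tested, oocyte form as circles and other form as squares. Open symbols mark genes listed at 0.0001 FPKM in all 3 libraries of a stage, whose difference is set by the added 1. All 17 circles lie left of -1, and 4 squares lie right of 1.

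The classes were then read in embryos that took no part in defining them. In the vitrified series 3022 genes (31.1%) were higher and 4069 (41.9%) lower in blastocysts than in 2-cells, 73% of the 9712 tested. Of the genes called in the fresh embryos 2616 of those higher (90.8%) and 3836 of those lower (87.6%) were called in the same direction, and 0 in the opposite one. Of the 727 lost genes 663 stood at 1 FPKM or more in all 3 vitrified 2-cells, 545 under 0.1 FPKM in all 3 vitrified blastocysts, and 9 reached 1 FPKM in any vitrified blastocyst. By the full rule 783 genes were lost in the vitrified series, and the 497 shared were 68.4% of the fresh and 63.5% of the vitrified class.

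Of the 300 gained genes 238 stood at 1 FPKM or more in all 3 vitrified blastocysts, 219 were under 0.1 FPKM in all 3 vitrified 2-cells, and 0 reached 1 FPKM in any vitrified 2-cell library. The 171 genes gained in both series were 57% of the fresh and 54.5% of the vitrified class of 314. Of the 782 kept genes 738 differed by less than 1 on the log2 scale in the vitrified series, 41 were called there, and 456 met the full rule, 58.3% of the fresh and 49.4% of the vitrified class of 924.

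A test of whether the stage difference itself differed between vitrified and fresh embryos covered 10725 genes in 12 libraries. By limma's interaction term 0 genes passed an adjusted p of 0.05, 1105 had an unadjusted p under 0.05, and the smallest adjusted p was 0.0773. That value belonged to HBE1, whose level in blastocysts is given above. APOA1 was at 8.24, 0.171 and 33.6 FPKM in vitrified blastocysts and APOE at 1.82, 0.0001 and 9.93 FPKM, all 6 below every fresh blastocyst, with an adjusted p for the interaction of 0.307 each.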

How the data were processed

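The authors removed adapters and low-quality reads, mapped the reads to the pig genome and let StringTie estimate one FPKM value per gene and library; the tools named are cutadapt, FastQC, Bowtie2, Bowtie, HISAT2 and StringTie, and their versions and the genome build are not given in the sources used here. The study's methods describe cDNA made from poly(A) tails with a SMART-Seq kit, whereas the sample labels describe a small-RNA kit. The values were read as mRNA levels, as the methods describe them. The deposited FPKM tables list 0 as 0.0001 and hold no counts. The authors' columns of fold changes and p-values between vitrified and fresh embryos were not used. Of 6907 genes without a symbol 951 took one from a reference list of gene names by identifier.

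From these values log2(FPKM + 1) was fitted with limma 3.58.1 (trend = TRUE) in R 4.3.3 on the 3 fresh blastocyst and 3 fresh 2-cell libraries, with Benjamini-Hochberg adjustment over all 9822 genes tested. A fold on this scale understates changes of low genes. The fit was tested on simulated data. Figures were drawn with matplotlib 3.10.9 under Python 3.11.15. Named genes were the 12 highest lost, gained and kept genes with a symbol, the 10 highest with a symbol at each stage, up to 6 called members of largest change per list, all members of the lineage, zona and subcortical lists, the 25 pairs, and 3 genes on each side of the 0.1 FPKM limit. The classes, the 19 lists and the pairs were chosen with earlier results of these data known; genes named outside this rule are marked, and some genes under it are not reported here. Alternatives changed the offset, filter, scaling, class limits, fit and libraries. Small-RNA rows stayed in all counts.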

Additional observations from a re-analysis of the deposited data

How the results depend on the processing

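Requiring 1 FPKM in all 6 libraries, which removes every gene near 0 at a stage, left 1088 higher and 1843 lower genes, 2931 in all. The lost and gained classes followed their limit: 380 and 132 genes with off taken as 0.0001, and 1515 and 900 with off under 0.5 FPKM. Scaling moved them less, to 552 and 420 genes (quantile), 579 and 385 (median ratio) and 876 and 248 (rescaled to a common sum). Kept genes numbered 474 with an offset of 0.1, 432 in one fit on all 18 libraries and 49 with the interval inside -0.5 to 0.5. Without the 10 highest genes of each stage, the mean share of FPKM was 2.837% for gained and 4.056% for kept genes in blastocysts, and 2.870% for lost and 5.244% for kept genes in 2-cells.

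Leaving out each library in turn gave 2804 to 2978 higher and 4357 to 4389 lower genes, 7191 to 7358 in all, and 770 to 859 lost, 326 to 441 gained and 573 to 851 kept genes. In each of the 6 fits 6792 (93.6%) of the called genes were called and 462 (59.1%) of the kept genes were kept. Same-numbered libraries of the 2 stages deviated together with correlations of 0.180, 0.237 and 0.062, so the numbers were not taken to pair them, and taking the replicate number as a block in the model gave 2900 higher, 4407 lower and 811 kept genes. Of 189 named called genes 180 were called under every alternative that tested them and 0 changed direction. The 9 others were COX3, COX2, ATP6, ND5, ND6, GATA4, BTG1, LSM14A and DNMT3B, and the cause was not tested. COX3, ATP6, ND5, ND6, LSM14A and DNMT3B lost the call only under another scaling. COX2, GATA4 and BTG1 lost it under other alternatives as well. Depth, which was not taken into account, limits what a value under 0.1 FPKM can show. A transcript listed at 0.0001 was not detected, which is not shown to be absence.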
